A study of Mus musculus with 38 samples.

Results

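The genes described here are 7 members of the leukaemia inhibitory factor (LIF) signalling pathway, which were picked by name out of the 23481 genes of the bulk RNA-seq table. They are the receptor chains Lifr and Il6st, the receptor kinase Jak1, the transcription factor Stat3, and the STAT3 target genes Socs3, Pim1 and Junb. All 7 were found in the bulk RNA-seq, the SCRB-seq and the SMART-seq2 tables. No measured value entered the rule that picked them, though earlier results of these data were known when they were chosen.

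E14 cells, a line of mouse embryonic stem cells (mESCs), were held in 2i/LIF, a medium with 1000 U/ml LIF, 1 µM of the MEK inhibitor PD0325901 and 3 µM of the GSK3 inhibitor CHIR99021. They were then switched to N2B27 medium with 0.25 µM all-trans retinoic acid (RA), sampled from 6 h to 96 h, and at 48, 72 and 96 h also sorted on the surface proteins PDGFRA and CD24. LIF, both inhibitors and added insulin left the medium at the moment RA was added, so LIF withdrawal cannot be told apart from the other changes. Sorted cells of 96 h were also grown on in N2B27 with 20 ng/ml EGF and 10 ng/ml FGF2.

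The bulk series held 2 mESC libraries, 1 library at each of 6, 12, 24, 36, 48, 60, 72, 84 and 96 h, and 2 libraries each of ectoderm-like cells (PDGFRA-, CD24+) and XEN-like cells (PDGFRA+, CD24-) sorted at 96 h. XEN stands for extraembryonic endoderm, the lineage that lines the yolk sac. The other 10 bulk libraries were single: quartiles Q1 to Q4 of CD24 among PDGFRA- cells at 48 h, terciles T1 to T3 of CD24 among PDGFRA- cells at 72 h, PDGFRA+ CD24- cells at 72 h, an ectoderm-like culture at passage 5 and a XEN-like culture of 3 weeks. All cells came from 1 line, and the labels name no transgene or deletion. The study's methods call the replicates of mESCs and sorted cells biological, and the labels do not say whether they were separate cultures, so p-values measure the spread between these libraries.

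LIF binds a receptor made of LIFR and gp130, the protein encoded by Il6st, and gp130 is shared with the receptors for interleukin 6, oncostatin M and other cytokines of the family. JAK kinases bound to the receptor phosphorylate STAT3, which enters the nucleus and switches on its targets. SOCS3 is one of these targets and shuts the receptor complex off again, PIM1 is a serine/threonine kinase, and JUNB is a subunit of the AP-1 transcription factor. In mESCs this pathway holds up self-renewal together with the inhibitors of 2i.

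Bulk libraries held 1063830 to 2459483 counts of unique molecules (UMIs), and values are given as CPM, counts scaled to a library total of 1000000, with exact Poisson intervals at the 95% level, which cover counting error only. At this depth most members were read from 2 to 100 molecules a library, so that small differences were not detectable. The 11 XEN-like markers fixed for checking the labels summed to 12049 and 6665 CPM in the sorted XEN-like libraries and to 485 and 1779 CPM in the sorted ectoderm-like ones. The 11 ectoderm-like markers summed to 3270 and 2803 CPM in the ectoderm-like and to 611 and 323 CPM in the XEN-like libraries. Markers of mESCs summed to 6267 and 4524 CPM in sorted XEN-like cells, against 790 and 432 CPM in sorted ectoderm-like cells, and their part in the differences between these cells was not tested. The 6 mesoderm markers reached at most 41.8 CPM in a sorted or cultured library, and Tbx6 was at 0 in all of them.

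STAT3 binds DNA at palindromes of the form TTCNNNGAA, so the start regions of the 7 genes were searched for these letters, which read the same on either strand. RefSeq sequences of the build GRCm38.p6 gave 9 windows for the 7 genes, each from 250 bases before to 50 bases after a transcript start. Of these, 1 held the motif, that of Socs3, beside 8.30% of all 32851 windows. The 250 bases before the Socs3 start are shown because Socs3 alone of the 7 had a match, which the capitals mark, 154 bases before the start at chr11:117969512-117969520.

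Socs3, chr11:117969367-117969616, minus strand: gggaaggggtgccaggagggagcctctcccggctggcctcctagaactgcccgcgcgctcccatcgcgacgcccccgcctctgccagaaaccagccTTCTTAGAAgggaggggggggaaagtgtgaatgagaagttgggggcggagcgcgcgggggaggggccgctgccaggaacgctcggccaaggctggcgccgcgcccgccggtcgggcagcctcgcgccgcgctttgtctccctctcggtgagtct

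The GENCODE annotation of GRCm38 places the Socs3 gene at chr11:117966079-117970047 on the minus strand, so this window lies inside the longer GENCODE gene. It places Stat3 on the same chromosome at chr11:100885098-100939540 (minus strand), Lifr at chr15:7090614-7197489 (plus), Il6st at chr13:112464070-112510086 (plus) and Jak1 at chr4:101152367-101265282 (minus). Pim1 lies at chr17:29490753-29496112 (plus) and Junb at chr8:84974484-84978718 (minus). The letters AGATAA, a form of the site bound by GATA factors such as the XEN marker Gata6, were in 0 of the 9 windows and in 11.2% of all windows on either strand. A match describes letters only, and windows without one say nothing of the factor.

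At 24 h after the switch Socs3 was past 2-fold below mESCs in bulk libraries and in plates of single cells. Il6st and Stat3 were past 2-fold below 0 h in the plates at 12 h and 24 h, and Jak1 was past 2-fold above mESCs in bulk at 6 h. Lifr was within 1.5-fold of its starting level in both assays. With 1 library or plate a time point these are ratios without a test. In bulk a gene was counted as past the threshold where it was at least 2-fold higher, or lower, than both mESC libraries. In the plates the threshold was taken against the 0 h plate alone. Junb had under 20 counts in each of these libraries and was left out of the counts. In bulk samples fewer expressing cells and less RNA per cell cannot be told apart.

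Socs3, the feedback inhibitor, was read from 48 and 38 molecules in the mESC libraries, or 21 and 16.5 CPM. It was at 16.6 CPM after 6 h, 19.4 CPM after 12 h and 6.97 CPM after 24 h. The fall at 24 h was to 0.332 (95% interval 0.169 to 0.612) and 0.422 (0.211 to 0.796) of the mESC libraries. The first 12 h thus overlapped mESCs in the counting intervals and 24 h lay below both libraries. Stat3 had 19.2 and 23.1 CPM in mESCs and 11.7, 17.6 and 10.5 CPM at 6, 12 and 24 h. At 6 h it was below mESC replicate 2 beyond counting error (0.300 to 0.839) but not below replicate 1 (0.355 to 1.02). Its ratios at 24 h were 0.543 (0.307 to 0.934) and 0.453 (0.260 to 0.765), so that it passed 2-fold against 1 of the mESC libraries only. Il6st had 9.19 and 8.71 CPM in mESCs and 7.33, 5.29 and 5.48 CPM at 6, 12 and 24 h, with intervals that overlapped throughout.

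Jak1, which phosphorylates the receptor and STAT3, was higher than in mESCs at all 3 times. It had 11.4 and 10.4 CPM in mESCs and 25.4 CPM at 6 h, a ratio of 2.24 (1.37 to 3.73) and 2.43 (1.47 to 4.13). At 12 h and 24 h it had 19.8 and 21.4 CPM, above both mESC libraries but not 2-fold above both. Lifr was at 22.3 and 27.4 CPM in mESCs and at 25.4, 25.1 and 25.9 CPM at 6, 12 and 24 h, all between the mESC values, with ratios of 0.916 to 1.16. Pim1 had 17.5 and 17.4 CPM in mESCs and 11.7, 13.7 and 21.4 CPM at these times, which did not separate from mESCs beyond counting error.

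Of the 6 members with enough counts, 1 was past 2-fold at 6 h, Jak1 upward, where 1.57% of 6819 genes were higher and 1.95% lower by the same rule. At 12 h 0 of 6 were past 2-fold, beside 2.31% of genes higher and 3.09% lower. At 24 h 1 of 6 was lower, Socs3, beside 4.41% of 7001 genes lower and 5.50% higher. Scaling the libraries by TMM factors moved the median log2 ratio over all genes by -0.13 at 6 h and -0.17 at 24 h, and Stat3 then joined Socs3 past 2-fold at 24 h. Without mESC replicate 1 the count at 24 h was 3, with Jak1 upward and Stat3 downward beside Socs3.

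SCRB-seq gave a second reading of the same hours. Here each well of a plate held a sorted cell whose RNA was counted by UMI, with 1 plate of 384 wells a time point. Wells with over 2000 UMIs were kept, 282, 335, 285 and 290 wells at 0, 6, 12 and 24 h, and their UMIs were summed because the wells of a plate are not replicates. All 384 well names recur on every plate, so cells were identified by plate and well.

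At 12 h and 24 h Il6st and Stat3 were further below their starting level in the plates than in the bulk libraries, a difference that was not tested. Counting intervals of these ratios overlapped between the assays except for Stat3 at 12 h. Il6st went from 0.573 UMIs per 10000 in the 0 h plate to 0.355, 0.162 and 0.176 in the 6, 12 and 24 h plates, a ratio at 12 h of 0.282 (0.183 to 0.424). Stat3 went from 0.865 UMIs per 10000 to 0.436, 0.287 and 0.176 at these times, a ratio at 24 h of 0.204 (0.130 to 0.307). Both lay below 0 h at all 3 times beyond counting error. Socs3 was read from 26 UMIs in the 0 h plate and from 29, 20 and 3 in the next plates, and the ratio at 24 h was 0.142 (0.0275 to 0.463).

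Pim1 differed between the assays. The 6 h plate held 162 Pim1 UMIs against 39 at 0 h, a ratio of 3.02 (2.12 to 4.40), where the bulk ratio at 6 h was 0.671 and 0.674. In the 12 h plate Pim1 was at 0.933 of 0 h (0.578 to 1.501). The highest Pim1 count in a well of the 6 h plate was 10 UMIs, so no single well carried the sum. Jak1 stood at 1.62, 1.79 and 1.66 times its 0 h level at 6, 12 and 24 h, each interval including 1, and rested on 17 UMIs at 0 h. Lifr stayed at 0.900, 1.20 and 1.33 times its 0 h level.

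By the 2-fold rule 1 of 6 members was past the threshold at 6 h, Pim1 upward, beside 12.8% of 9029 genes higher and 18.6% lower. At 12 h 2 of 6 were lower, Il6st and Stat3, beside 20.5% of 8753 genes lower and 13.9% higher. At 24 h 3 of 6 were lower, Il6st, Stat3 and Socs3, beside 25.7% of 8626 genes lower and 15.7% higher. The share of genes past 2-fold was larger between plates than between bulk libraries, but the rules differed. In bulk a gene had to pass against both mESC libraries, and in the plates against the 0 h plate alone. With 1 plate a time point plate and time cannot be told apart. With wells of over 4000 UMIs, Stat3 and Socs3 were also past 2-fold at 6 h.

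**Figure D1:**
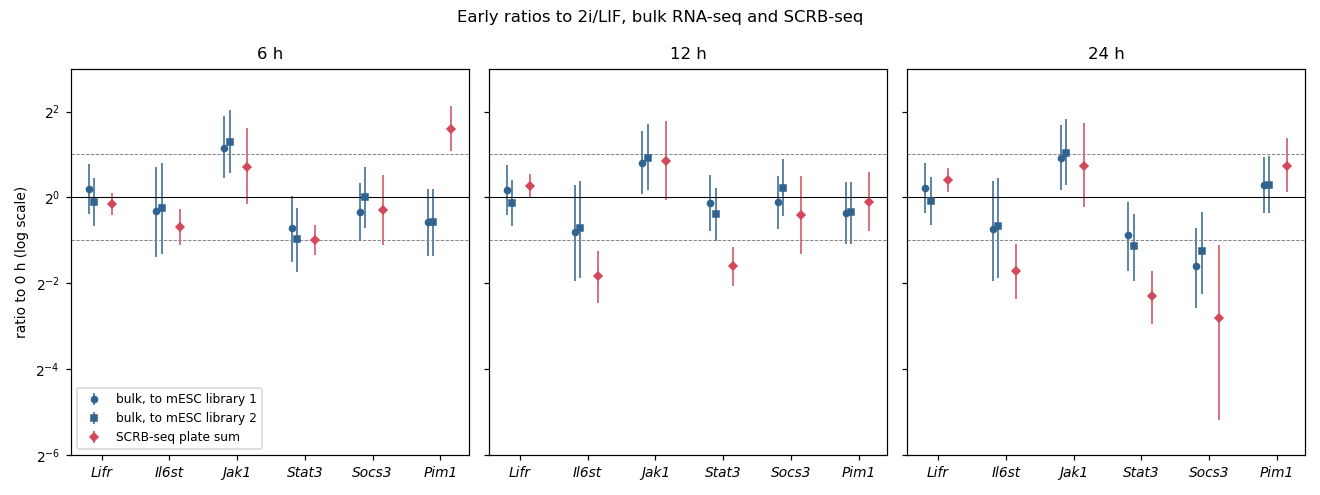
Ratio to 0 h (log scale) of 6 members at 6, 12 and 24 h, in bulk RNA-seq against each of the 2 mESC libraries and in SCRB-seq plate sums; bars are exact 95% counting intervals and dashed lines mark 2-fold. Socs3 lies low in both assays at 24 h, Stat3 lies lower in the plates than in bulk at 12 h and 24 h, and Pim1 at 6 h lies above 1 in the plate (3.02) and below 1 in bulk.

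Later in the time course Lifr and Jak1 were past 2-fold above mESCs, from 60 h and from 36 h on, and Socs3 was past 2-fold below from 24 h on. Lifr kept to 18.2 to 25.9 CPM up to 48 h, and had 57.6, 103, 113 and 197 CPM in the 60, 72, 84 and 96 h libraries. The last value was 7.93 times the mean of the mESC libraries, and every library from 60 h on lay above both of them. Jak1 was at 38.6 CPM in the 48 h library, 40.8 CPM in the 60 h library and 35.4 CPM in the last, 3.24 times the mESC mean.

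Stat3 and Il6st shared a low point at 36 h in bulk. Stat3 was read from 6 molecules there, 3.63 CPM, 5.83-fold below the mESC mean, and had 24.6 CPM at 96 h. Il6st was read from 4 molecules at 36 h, 2.42 CPM, and reached 12.8 CPM at 96 h, with an interval of 8.29 to 18.9 CPM that overlaps mESCs. The 36 h library was lower than its neighbours for both genes, and the SCRB-seq plates did not show this low point. In them Stat3 was at 0.176, 0.340 and 0.169 UMIs per 10000 at 24, 36 and 48 h, and Il6st at 0.176, 0.180 and 0.169.

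Socs3 and Pim1 were lowest late in the bulk course. Socs3 had 3.60 to 7.26 CPM from 24 h on, 2.62-fold below the mESC mean at 96 h. Pim1 went from 16.3 CPM at 36 h to 5.64 CPM at 96 h, 3.10-fold below the mESC mean. Junb was read from 2 to 8 molecules in each library of the time course, too few to follow. At 36 h 1 of 6 members was higher (Jak1) and 3 lower (Il6st, Stat3 and Socs3) by the 2-fold rule, beside 5.50% and 7.18% of genes. At 48 h 1 was higher (Jak1) and 1 lower (Socs3), beside 13.5% and 5.71% of genes. At 60 h Lifr and Jak1 were higher and Stat3 and Socs3 lower, beside 12.4% and 7.50%. At 72 h Lifr and Jak1 were higher and Socs3 lower, beside 16.4% and 7.41%, and at 84 h Pim1 was lower as well, beside 16.9% and 7.55%. At 96 h 2 were higher (Lifr and Jak1) and 2 lower (Socs3 and Pim1), beside 18.9% and 7.38% of 7625 genes.

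**Figure D2:**
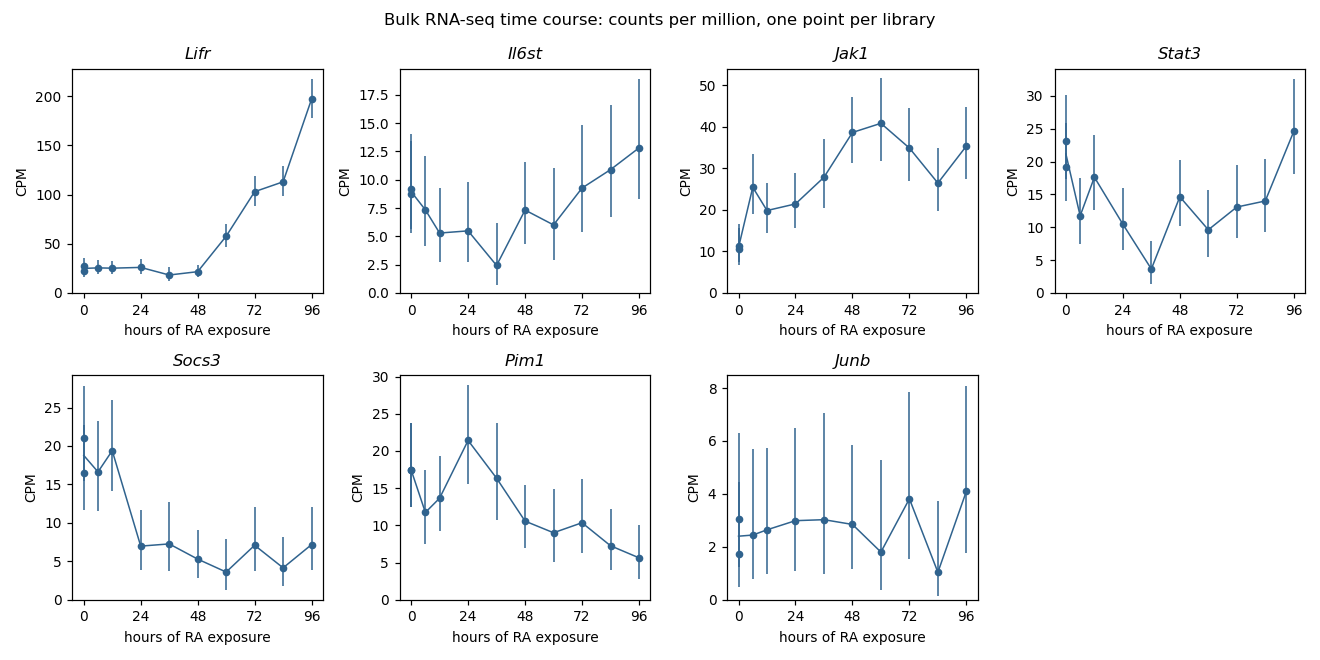
CPM of the 7 members against hours of RA exposure in bulk RNA-seq, with 1 point per library, 2 libraries at 0 h and exact 95% Poisson intervals; the line passes through the mean of the 2 mESC libraries. Lifr climbs after 48 h to 197 CPM, Stat3 and Il6st dip at 36 h, and Socs3 drops between 12 h and 24 h.

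In the SCRB-seq plates Lifr stood at 1.00 to 1.51 UMIs per 10000 up to 60 h and at 1.92 and 3.14 in the 72 h and 96 h plates, the last 2.76 times 0 h (2.28 to 3.34). Jak1 peaked at 60 h with 0.645 UMIs per 10000, 7.15 times 0 h (4.27 to 12.7). Stat3 had 0.275 UMIs per 10000 at 96 h, a ratio of 0.318 (0.189 to 0.508), where the bulk library of 96 h was at 1.16 times the mESC mean. Socs3 had 0 UMIs in 1720663 at 60 h, which allows up to 0.167 of its 0 h level, and 9 UMIs at 96 h, a ratio at 96 h of 0.897 with an interval of 0.370 to 1.98. Pim1 stood at 2.96 times 0 h at 48 h (2.02 to 4.40) and at 1.91 times at 60 h (1.27 to 2.91). It was at 0.369 at 72 h (0.164 to 0.753) and at 1.93 at 96 h (1.15 to 3.20). In bulk, Pim1 was at 0.516 and 0.323 times the mESC mean at 60 h and 96 h. Lifr and Jak1 were thus above their starting level in both assays late in the course. The levels of Stat3 and Pim1 at 96 h stood apart between the assays, a difference that was not tested. Over the 137 wells kept at 96 h, the rank correlation of Lifr with the summed XEN-like markers was 0.49, with both taken from the same wells and depths.

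By the 2-fold rule Jak1 and Pim1 were higher and Il6st, Stat3 and Socs3 lower at 36 h, beside 17.1% and 21.6% of genes. At 48 h Jak1 and Pim1 were higher and Il6st and Stat3 lower, beside 19.2% and 20.7%. At 60 h Jak1 was higher and Il6st, Stat3 and Socs3 lower, beside 23.8% and 17.7%, and at 72 h Pim1 was lower as well, beside 23.4% and 19.4%. At 96 h, with 137 wells, 5 members had enough UMIs, of which Lifr was higher and Stat3 lower, beside 20.9% and 20.7% of genes. Thinned to 2000 UMIs a well, 39.4% of wells held a Lifr UMI at 96 h (31.2% to 48.1%) against 20.2% at 0 h (15.7% to 25.4%), where the shares without thinning were 59.1% and 40.1%. For Stat3 the thinned shares were 13.8% at 0 h and 2.76% at 24 h, and for Il6st 8.87% and 1.38%.

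**Figure D3:**
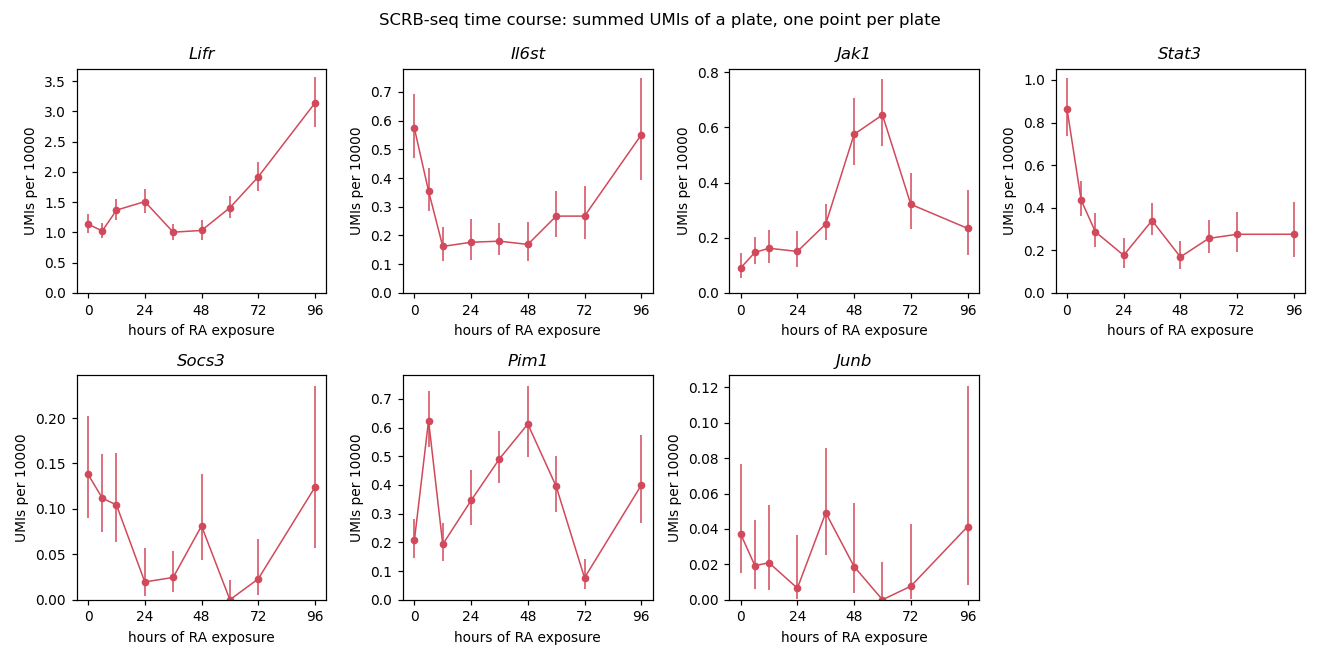
Summed UMIs of each member per 10000 UMIs of the plate against hours of RA exposure in SCRB-seq, with 1 point per plate and exact 95% Poisson intervals. Stat3 and Il6st drop within 12 h, Jak1 peaks at 60 h, and Lifr is highest at 96 h (3.14 UMIs per 10000).

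SMART-seq2 read whole transcripts of 82, 86, 89 and 82 cells at 0, 12, 24 and 48 h, with 1 sample a time. The deposited RPKM values carry a fault. Values are written to 5 digits or fewer, yet 0 values between 1 and 10 have 4 decimals, while 15230 values of the 0 h table have 3. Values of 10 to 100 with 3 decimals outnumber those with 2 by 448848 to 29681 at 0 h, where the neighbouring range of 100 to 1000 has 83052 against 7932. A value of 10 to 100 with 3 decimals may therefore be 10 times too high, and many cells carry such a value for a member, from 15 of 82 cells for Junb at 48 h to 73 of 82 for Lifr at 0 h. Whether a value is above 0 is not touched, so the share of cells above 0 is given, with exact (Clopper-Pearson) 95% intervals that cover the sampling of cells only.

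Socs3 was above 0 in 97.6%, 76.7%, 64.04% and 37.8% of cells at 0, 12, 24 and 48 h, the last with an interval of 27.3% to 49.2%. Il6st was above 0 in 92.7%, 63.95%, 69.7% and 45.1% of cells at these times. Stat3 was above 0 in 98.8%, 91.9%, 89.9% and 69.5%. The intervals of Socs3 and Il6st lay below those of 0 h at every later time and that of Stat3 at 48 h, while the median number of genes above 0 in a cell was 7715, 7935, 8408 and 7912. Between 0 h and 48 h the median change over 15742 genes was -1.22 percentage points, and 0.591% of genes fell by as much as Socs3 and 1.28% by as much as Il6st. Genes read at 0 h in a share of cells smaller than these falls could not fall as far. The percentages are thus over all these genes, not over those of a like starting share.

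Lifr was above 0 in 100%, 100%, 98.9% and 93.9% of cells at these times. Jak1 was above 0 in 74.4%, 84.9%, 87.6% and 82.9%, with overlapping intervals. Pim1 went from 89.02% at 0 h to 78.05% at 48 h, with overlapping intervals. Junb went from 48.8% (37.6% to 60.1%) to 23.2% (14.6% to 33.8%), so that its interval at 48 h lay below that of 0 h. The receptor chain Lifr was thus still read in nearly every cell at a time when most cells had no Socs3 value.

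The mean of the deposited RPKM was past 2-fold against 0 h for 1 of 7 members at 12 h (Junb, lower), 1 at 24 h (Socs3, lower) and 4 at 48 h (Il6st, Stat3, Socs3 and Junb, lower). By the same rule 8.59%, 10.3% and 11.3% of genes were lower at these times, and 13.1%, 15.0% and 22.5% higher. None of these calls holds over every possible assignment of the doubtful values, since 0 of 7 were past 2-fold at both bounds at each time. The ratio for Socs3 at 48 h lies between 0.0442 and 0.885 and is the only one of the 21 whose bounds both lie below 1.

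**Figure D4:**
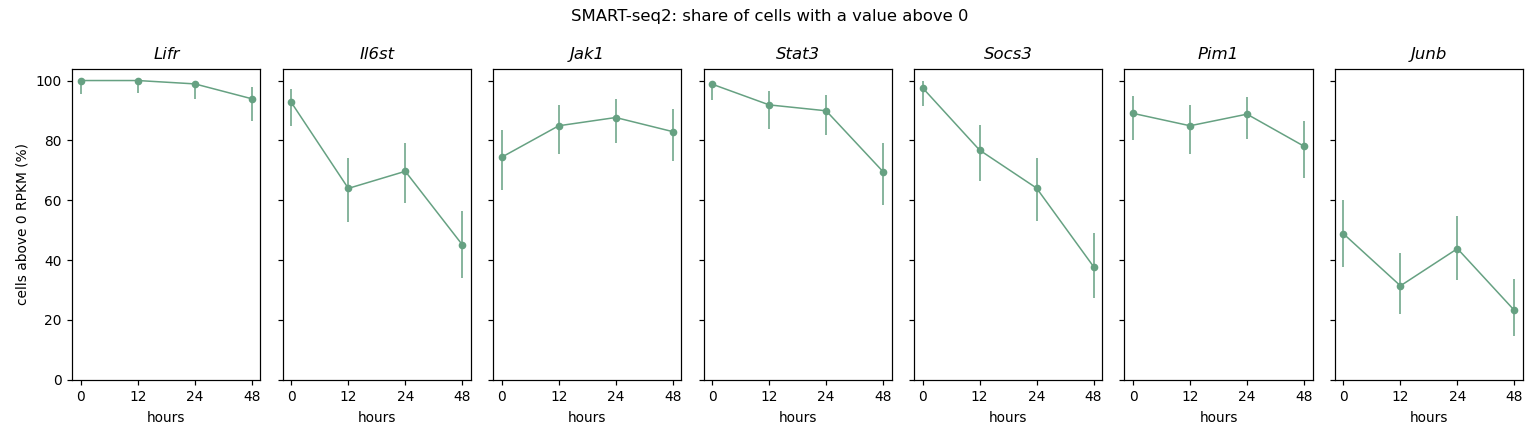
Percentage of SMART-seq2 cells with a value above 0 for each member at 0, 12, 24 and 48 h, with exact 95% binomial intervals over 82 to 89 cells. Socs3 declines from 97.6% to 37.8% and Il6st from 92.7% to 45.1%, while Lifr stays above 93%.

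Sorting at 96 h separated cells that differed in the receptor chain. Lifr was about 9 times higher in XEN-like cells than in mESCs or ectoderm-like cells, Pim1 was 6.98-fold lower there than in mESCs and 5.10-fold lower than in ectoderm-like cells, and Stat3 and Socs3 were lower in ectoderm-like cells than in mESCs. These groups had 2 libraries each and were compared with edgeR's quasi-likelihood test over 8947 genes, with Benjamini-Hochberg adjusted p. Junb fell under the filter on low counts, which left 6 of the 7 members.

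Lifr was at 363 and 192 CPM in XEN-like cells, 27.2 and 37.5 CPM in ectoderm-like cells and 22.3 and 27.4 CPM in mESCs. XEN-like cells lay above all other libraries of this comparison, and the other groups overlapped. The log2 change was 3.25 ± 0.35 (SE) from mESCs to XEN-like cells (edgeR adjusted p = 0.000133) and 3.18 ± 0.35 from ectoderm-like to XEN-like cells (edgeR adjusted p = 0.00069). From mESCs to ectoderm-like cells it was 0.07 ± 0.35 (edgeR adjusted p = 0.928), with an interval of -0.62 to 0.75. Of the XEN-like libraries the one with the higher XEN-like marker sum, replicate 1, also had the higher Lifr level, and the ectoderm-like library with more XEN-like marker RNA, replicate 2, had the higher Lifr level of its group. The part of this marker RNA in the Lifr level was not tested.

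Pim1 had 3.56 and 1.82 CPM in XEN-like cells, read from 7 and 2 molecules, against 16.1 and 15.5 CPM in ectoderm-like cells and 17.5 and 17.4 CPM in mESCs. XEN-like cells lay below the other 4 libraries. The log2 change was -2.80 ± 0.47 from mESCs (edgeR adjusted p = 0.00139) and -2.35 ± 0.48 from ectoderm-like cells (edgeR adjusted p = 0.00939). The latter was not called by DESeq2 (adjusted p = 0.0548) or, in edgeR, without ectoderm-like replicate 1 (adjusted p = 0.0617), with log2 changes of -2.36 and -2.35. Ectoderm-like cells had a log2 change from mESCs of -0.45 ± 0.36 (edgeR adjusted p = 0.433).

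Stat3 had 11.7 and 8.40 CPM in ectoderm-like cells, 19.2 and 23.1 CPM in mESCs, and 32 and 17.3 CPM in XEN-like cells. Ectoderm-like cells lay lowest, and XEN-like cells overlapped mESCs. The log2 change was -1.38 ± 0.39 from mESCs to ectoderm-like cells (edgeR adjusted p = 0.0289) and 1.40 ± 0.40 from ectoderm-like to XEN-like cells (edgeR adjusted p = 0.0391). DESeq2 gave neither call, with adjusted p of 0.127 and 0.159. In edgeR the former call was lost without mESC replicate 2 (adjusted p = 0.0994) or either ectoderm-like replicate (0.101 and 0.172), and the latter without either ectoderm-like replicate (0.154 and 0.161) or XEN-like replicate 1 (0.262).

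Socs3 had 3.33 and 4.52 CPM in ectoderm-like cells, 8.63 and 11.8 CPM in XEN-like cells and 21 and 16.5 CPM in mESCs. The CPM values of the 3 groups did not overlap and stood in that order. Counting intervals of XEN-like libraries overlapped those of both other groups. The log2 change from mESCs was -2.55 ± 0.46 in ectoderm-like cells (edgeR adjusted p = 0.00273) and -1.11 ± 0.42 in XEN-like cells (edgeR adjusted p = 0.0784). The difference between the sorted cells, 1.45 ± 0.51, did not pass the test (edgeR adjusted p = 0.0898).

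Il6st had 7.23 and 9.05 CPM in ectoderm-like cells, 18.3 and 6.38 CPM in XEN-like cells and 9.19 and 8.71 CPM in mESCs, and the XEN-like libraries lay on either side of the others. Jak1 had 33.3 and 19.4 CPM in ectoderm-like cells and 28.9 and 16.4 CPM in XEN-like cells, all above 11.4 and 10.4 CPM in mESCs. Its log2 change from mESCs was 0.96 ± 0.39 in ectoderm-like cells (edgeR adjusted p = 0.111) and 0.86 ± 0.39 in XEN-like cells (edgeR adjusted p = 0.144). Junb was read from 6 and 3 molecules in ectoderm-like cells, 14 and 2 in XEN-like cells and 7 and 4 in mESCs.

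In all, 0 of 6 members were higher and 2 lower in ectoderm-like cells than in mESCs, beside 9.85% and 9.28% of genes, 19.1% in either direction. In XEN-like cells 1 was higher and 1 lower, beside 12.3% and 10.5% of genes, 22.8% in all. Between the sorted cells 2 were higher in XEN-like cells and 1 lower, beside 6.99% and 5.74% of genes, 12.7% in all. The median log2 change of the 6 members was -0.45, 0.16 and 1.08 in these comparisons, against 0.05, -0.06 and -0.06 over all genes.

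At 72 h PDGFRA+ cells likewise had more Lifr and less Pim1 RNA than PDGFRA- cells. PDGFRA+ CD24- cells had 197 CPM of Lifr, and the CD24 terciles T1, T2 and T3 of PDGFRA- cells had 45.8, 22.9 and 22.3 CPM. PDGFRA+ cells were 4.30 times T1 (3.23 to 5.80) and 8.85 times T3 (6.02 to 13.5). T1 was itself 2.06 times T3 (1.30 to 3.33), past 2-fold where 8.33% of genes were higher and 4.02% lower, and held 797 CPM of XEN-like markers against 356 CPM in T3 and 4380 CPM in PDGFRA+ cells. The part of these markers in the Lifr level was not tested. The labels do not say which end of the CD24 range T1 and Q1 stand for. The ectoderm-like markers, with Cd24a, the gene of CD24, among them, summed to 1294 CPM in T1 and 2492 CPM in T3. At 48 h they summed to 885 CPM in Q1 and 1560 CPM in Q4. Pim1 had 0 molecules in PDGFRA+ cells and 16.3, 17.6 and 11.5 CPM in T1, T2 and T3. Against a floor of 3 counts a library, PDGFRA+ cells were at least 7.40-fold lower than T1 and at least 5.22-fold lower than T3.

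Stat3 had 20.6 CPM in PDGFRA+ cells at 72 h and 10.9, 7.06 and 6.91 CPM in T1, T2 and T3, 2.98 times T3 (1.37 to 7.18). Socs3 had 11.8 CPM there and 8.55, 3.53 and 4.61 CPM in the terciles, 2.55 times T3 with an interval of 0.949 to 7.97. Il6st had 9.55 CPM there and 3.84 to 7.06 CPM in the terciles, and Jak1 21.3 CPM against 24.1 to 33.5 CPM. Each fraction was 1 library, so none of these ratios has a replicate check. Between PDGFRA+ cells and T3, 12.6% of 5557 genes were at least 2-fold higher and 14.2% lower, and against T1 604 of 5488 genes (11%) were higher and 15.1% lower. Markers of mESCs summed to 7169 CPM in PDGFRA+ cells, 4643 CPM in T1 and 1314 CPM in T3.

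At 48 h, among PDGFRA- cells, the CD24 quartiles lay close together for all members but Lifr. It had 37.5 CPM in Q1 and 17.9 to 21.4 CPM in Q2 to Q4, and Q1 was 1.85 times Q4 (1.18 to 2.96). Pim1 had 22.6 to 26.4 CPM, Jak1 17.4 to 28.2 CPM, Socs3 4.42 to 7.14 CPM, Stat3 2.82 to 5.35 CPM and Il6st 3.76 to 4.42 CPM over the quartiles. For these 5 members Q1 and Q4 did not separate beyond counting error, and over all genes 4.24% were at least 2-fold higher in Q1 and 5.05% lower. The unsorted 48 h library had 14.6 CPM of Stat3, 10.6 CPM of Pim1, 38.6 CPM of Jak1 and 7.32 CPM of Il6st. Each of these values was outside the range of the quartiles, while Lifr (21.5 CPM) and Socs3 (5.29 CPM) lay inside it. The labels give a sample barcode for the time course but none for the 48 h and 72 h fractions or mESC replicate 2, and whether these sets were processed together is not given in the sources used here.

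**Figure D5:**
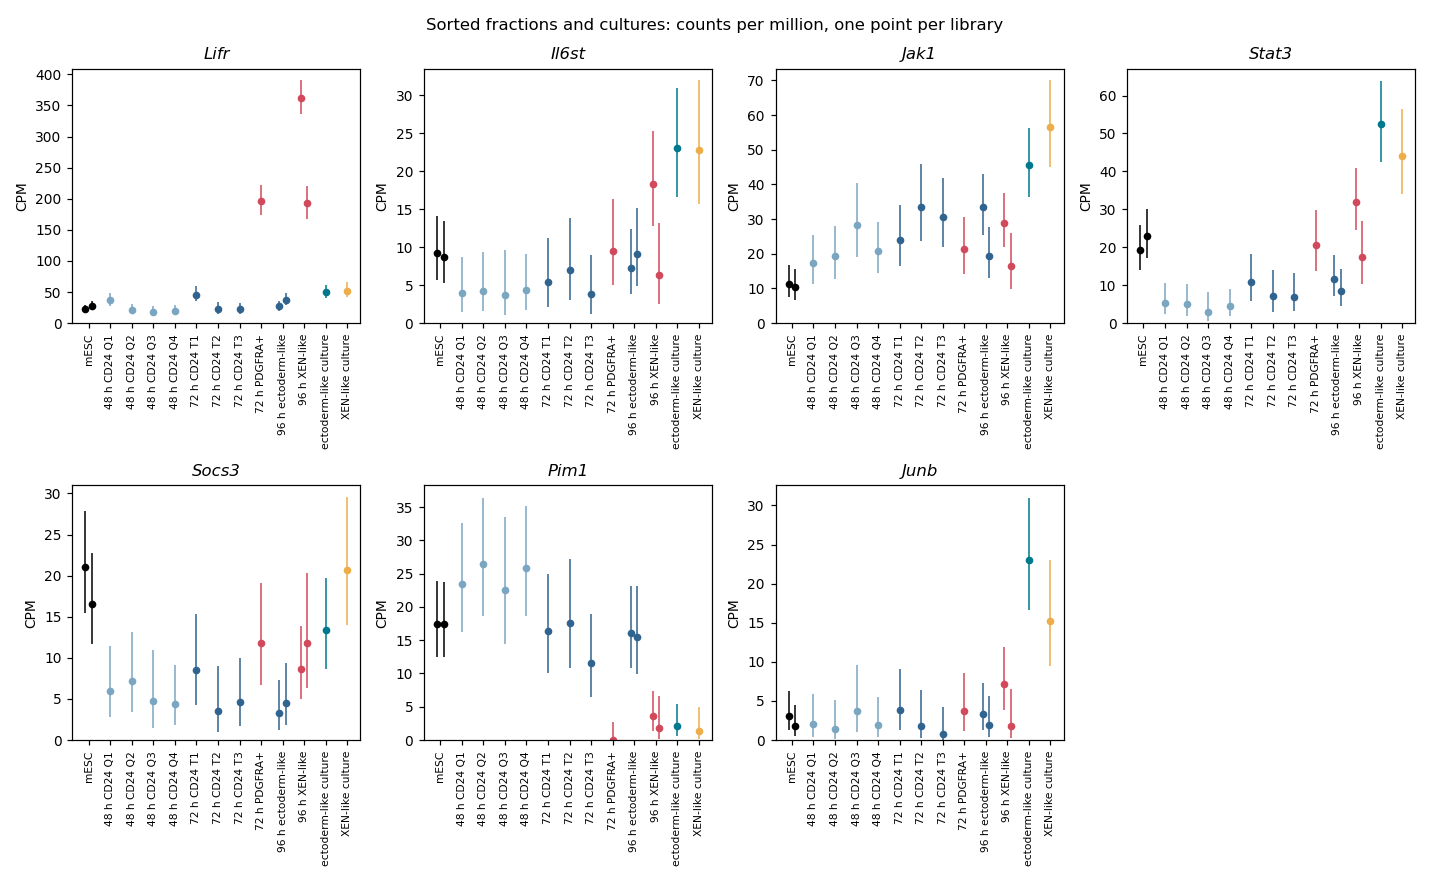
CPM of the 7 members in mESCs, the CD24 quartiles (48 h) and terciles (72 h) of PDGFRA- cells, PDGFRA+ cells of 72 h, cells sorted at 96 h and the cultures, with 1 point per library and exact 95% Poisson intervals. Lifr is high in PDGFRA+ cells of 72 h and XEN-like cells of 96 h, Pim1 is lowest in the same libraries and in the cultures (0 to 3.56 CPM), and Junb is highest in the cultures.

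In the cultures Lifr was at nearly the same level. The XEN-like culture had 52.4 CPM of Lifr and the ectoderm-like culture 50.3 CPM, so that their intervals, 41.3 to 65.6 and 40.7 to 61.6 CPM, nearly coincide. Against the 2 sorted XEN-like libraries together the XEN-like culture was 5.75-fold lower, and against the sorted ectoderm-like libraries the ectoderm-like culture was 1.57 times higher (1.18 to 2.10). The cultures also differed from the sorted cells in markers. The XEN-like markers summed to 2235 CPM in the ectoderm-like and 10097 CPM in the XEN-like culture, and the ectoderm-like markers to 1653 and 1552 CPM, the last value above the 611 and 323 CPM of sorted XEN-like cells. The part of these markers in the Lifr levels was not tested. Pim1 was low in both cultures, read from 4 molecules (ectoderm-like) and 2 (XEN-like).

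By CPM, Il6st, Jak1, Stat3 and Junb were higher in the cultures than in any other library. Counting intervals of the next highest library overlapped those of both cultures for Il6st and Jak1. For Stat3 and Junb they overlapped those of the XEN-like culture only. Stat3 had 52.5 CPM in the ectoderm-like culture, 5.16 times the sorted cells (3.46 to 7.87), and 44.1 CPM in the XEN-like culture. Il6st had 23 and 22.8 CPM, Jak1 45.5 and 56.6 CPM, and Socs3 13.4 and 20.7 CPM in the ectoderm-like and XEN-like cultures. Junb had 23 and 15.2 CPM, 8.56 times the sorted ectoderm-like cells (4.12 to 20.0) and 2.91 times the sorted XEN-like cells (1.46 to 5.92), and both cultures were higher than the other 23 libraries, which had at most 7.11 CPM.

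The 13 immediate-early genes, AP-1 subunits and others that answer to growth factors and handling within minutes, summed to 288 CPM (ectoderm-like) and 578 CPM (XEN-like) in the cultures. In the other libraries they summed to 71.6 to 207 CPM. Their part in the Junb level was not tested, and growth in EGF and FGF2, time in culture and cell type cannot be told apart in 1 library each. By the 2-fold rule against both sorted libraries, 4 of 7 members were higher in the ectoderm-like culture (Il6st, Stat3, Socs3 and Junb) and 1 lower (Pim1), beside 14.7% and 9.65% of 7649 genes. In the XEN-like culture 1 of 6 was higher (Junb) and 1 lower (Lifr), beside 20.8% and 13.4% of 7452 genes.

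The XEN-like culture also held abundant messages that were low in sorted XEN-like cells. In it Tff1 and Gkn1, secreted proteins of the stomach lining, were its most abundant messages among the genes kept, leaving out the ribosomal transcript Rn45s, and are named here after their values were seen. Tff1 made up 5.66% and Gkn1 5.41% of its counts, and each was at 13.3 to 62.9 CPM in all other libraries. Their part in the CPM of other genes of that culture was not tested.

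Other members of the cytokine family were rare in these cells. Of 11 ligands and receptors besides Lifr and Il6st, only Il6ra, the interleukin 6 receptor chain, had enough counts to be tested in the sorted cells. Il6ra was read from 33 and 18 molecules in mESCs and from 27, 6 and 1 in the 6, 12 and 24 h libraries. It was lower in both sorted cell types, with log2 changes of -4.38 ± 0.84 in ectoderm-like cells (edgeR adjusted p = 0.00382) and -5.06 ± 0.96 in XEN-like cells (edgeR adjusted p = 0.00297). Osm, which encodes oncostatin M, had 14 and 9 molecules in mESCs, 1 at 6 h, and 0 to 2 in every later library. Lif itself was read from 1 and 2 molecules in mESCs, 11 in PDGFRA+ cells of 72 h, and 16 and 3 in sorted XEN-like cells. Il6 and Osmr, the oncostatin M receptor chain, had 17 molecules each in the ectoderm-like culture and at most 5 in any other library. Il11ra1, an interleukin 11 receptor chain, had 27 and 29 molecules in the cultures and at most 7 elsewhere.

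Among 25 intracellular components and regulators of the pathway, 15 were tested in the sorted cells, and 4 were lower than mESCs in ectoderm-like cells and 4 in XEN-like cells, with 0 higher in either. Over all genes 9.28% were lower and 9.85% higher in ectoderm-like cells, and 10.5% lower and 12.3% higher in XEN-like cells. Stat6, another STAT factor, had a log2 change of -4.50 ± 0.59 in ectoderm-like cells (edgeR adjusted p = 0.000365) and -2.36 ± 0.48 in XEN-like cells (edgeR adjusted p = 0.00426). Pias2, a SUMO ligase named as an inhibitor of STATs, and Socs2, an inhibitor of cytokine receptors, were lower in both. Gab1, an adaptor that couples gp130 to other kinases, was lower in ectoderm-like cells only by the test against mESCs (log2 change -2.20 ± 0.35, edgeR adjusted p = 0.00119), and was 2.02 ± 0.35 higher in XEN-like than in ectoderm-like cells (edgeR adjusted p = 0.00416). The median log2 change of the 15 was -0.28 in ectoderm-like cells, where that of all genes was 0.05, and -0.41 in XEN-like cells, where it was -0.06. By the 2-fold rule 0 of 13 with enough counts were past the threshold in bulk at 6 h and 12 h and 0 of 12 at 24 h, where 1.57%, 2.31% and 5.50% of all genes were higher and 1.95%, 3.09% and 4.41% lower.

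Of 16 other genes listed as targets of STAT3 or LIF, 11 were tested in the sorted cells. In ectoderm-like cells 5 were lower than mESCs and 0 higher, and in XEN-like cells 5 were lower and 1 higher, Gadd45g, a growth arrest gene, beside the shares of all genes given above (9.28% lower and 9.85% higher, and 10.5% lower and 12.3% higher). Tfcp2l1, a pluripotency factor downstream of STAT3, had the largest change of these in ectoderm-like cells, with a log2 change of -6.12 ± 0.52 (edgeR adjusted p = 2.46e-05), and -4.87 ± 0.48 in XEN-like cells (edgeR adjusted p = 7.69e-05). In bulk Tfcp2l1 stood at 137 and 239 CPM in mESCs, 102 CPM at 6 h, and 46.7 and 20.9 CPM at 12 and 24 h. Klf4, another pluripotency factor, stood at 64.7 and 74.9 CPM, then 37.2, 23.3 and 22.9 CPM. Myc, a growth regulator, stood at 10.1 and 5.22 CPM in mESCs and at 24.0, 22 and 24.9 CPM in these libraries. By the 2-fold rule 1 of 9 was higher and 0 lower at 6 h, 1 higher and 2 lower at 12 h, and 2 higher and 2 lower at 24 h, beside 1.57%, 2.31% and 5.50% of all genes higher and 1.95%, 3.09% and 4.41% lower. Tfcp2l1 and Klf4 are also among the mESC markers, so these falls are not separate from that list. In the plates 3 higher and 3 lower of 11 were counted at 6 h, 3 and 2 of 11 at 12 h, and 4 and 5 of 12 at 24 h, again with Myc higher and Klf4 and Tfcp2l1 lower at each time. Between these plates 12.8%, 13.9% and 15.7% of all genes were higher and 18.6%, 20.5% and 25.7% lower.

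Klf4 was 3.12 ± 0.42 higher on the log2 scale in XEN-like than in ectoderm-like cells (edgeR adjusted p = 0.0014), and the XEN-like culture held 342 CPM of Klf4 and 73.1 CPM of Tfcp2l1. Of 9 immediate-early genes tested, 2 were higher (Fos and Jun) and 0 lower on going from mESCs to ectoderm-like cells, beside 9.85% and 9.28% of all genes. In XEN-like cells Fosl2, Jun and Atf3 were higher and Ier2 and Dusp1 lower, beside 12.3% and 10.5%. Jun had the largest change of these 9 in both, with log2 changes of 4.08 ± 0.48 (edgeR adjusted p = 0.000214) and 3.65 ± 0.50 (edgeR adjusted p = 0.000406).

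Across the 25 bulk libraries the genes most like each member in log2(CPM + 1), among those with a mean of at least 10 CPM, were found by Pearson's r, a description over libraries that share cultures and time. For Lifr these were Erp29 (0.96) and Asah1 (0.95). For Il6st the nearest gene was another member, Stat3 (0.89), followed by Nucb1 (0.88) and Psap (0.88). For Stat3 they were 0610012G03Rik (0.89), S100a11 (0.87) and Nid1 (0.86). For Pim1 they were Cmah (0.90), Sap30 (0.87) and Mcm3ap (0.85), and for Socs3 Mpc1 (0.86), Gpx1 (0.84) and Cstb (0.84). For Jak1 they were Phlda1 (0.86), Zhx1 (0.82) and Rhog (0.82), and for Junb Ppp3ca (0.79), S100a6 (0.79) and Sh3bgrl3 (0.78).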

How the data were processed

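Bulk RNA-seq and SCRB-seq files hold raw UMI counts deposited by the authors, made with BWA 0.7.4 per the labels, and SMART-seq2 files hold RPKM deposited by the authors, with TopHat and Cuffnorm among the named tools and the build mm10. Because 3 bulk values were text, 2 genes were left out. Samples were grouped by their labels. The test for sorted cells and mESCs was that of edgeR 4.0.16 under R 4.3.3 (quasi-likelihood, TMM, filterByExpr, Benjamini-Hochberg adjusted p, threshold 0.05), with DESeq2 1.42.0, other scaling, no filter, single libraries left out and a replicate block as alternatives. Tested on simulated data, the edgeR step recovered 83% to 89% of genes changed by 2 on the log2 scale, and called 7 to 14 unchanged genes. The changed genes were drawn only from those above a floor of expected counts, so these rates do not cover rarer genes. Groups of 1 library were compared by ratios (2-fold; 1.5-fold as alternative) among genes with at least 20 counts, or a mean RPKM of at least 1. In SMART-seq2, decimal commas in 0.127% to 0.14% of values were read as decimal points, repeated gene names were left out, and quartiles over cells were not used because of faulty values. The named genes were the members, up to 4 of a list that passed in a comparison, and the 3 nearest genes of each member, of which 1 is not reported here. Members and lists were chosen with earlier results of these data known.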

Additional observations from a re-analysis of the deposited data

Results flagged for a closer look

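The change from mESCs differed between XEN-like and ectoderm-like cells for 3 members, by edgeR's test of the difference. That test is the comparison of XEN-like with ectoderm-like cells given above, not a further one. The change differed by 3.18 on the log2 scale for Lifr (XEN-like higher), by 1.40 for Stat3 (XEN-like higher) and by -2.35 for Pim1 (XEN-like lower). All 4 libraries followed these directions for each of the 3 genes. The call for Lifr was also made by DESeq2, and those for Stat3 and Pim1 were not.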

How the results depend on the processing

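Counts of members past the threshold moved in these cases. DESeq2 called 1 member instead of 2 between ectoderm-like cells and mESCs (Socs3) and 1 instead of 3 between XEN-like and ectoderm-like cells (Lifr). Leaving out 1 library gave 1 to 2 and 1 to 3 calls in these comparisons, and Lifr alone was called in the latter without ectoderm-like replicate 1. Between XEN-like cells and mESCs Lifr and Pim1 were called under all alternatives. A replicate block between the sorted cells gave 4 calls, adding Socs3, but the replicate numbers are not shown to pair the libraries. Over 8947 genes, the differences between replicates 1 and 2 of ectoderm-like and of XEN-like cells had a correlation of 0.333. In bulk at 6, 12 and 24 h, a 1.5-fold threshold gave 2, 2 and 4 members instead of 1, 0 and 1, and at 24 h TMM scaling gave 2 and leaving out a mESC library 1 to 3. In SCRB-seq at 6 h, wells of over 1000 and 4000 UMIs gave 2 and 3 members and a 1.5-fold threshold 4, instead of 1, and at 24 h 1.5-fold gave 5 instead of 3. In SMART-seq2 at 12 h and 24 h, scaling each cell gave 0 and 0 instead of 1 and 1, the mean of log2(RPKM + 1) 3 and 2, 1.5-fold 3 and 2, and dividing the doubtful values by 10, chosen after seeing the data, 4 and 2. The cause was not tested. Differences that changed sign were all uncalled. With single libraries left out, Lifr from mESCs to ectoderm-like cells ranged from -0.24 to 0.36 on the log2 scale (-0.12 without mESC replicate 1). From mESCs to XEN-like cells Il6st ranged from -0.54 to 0.71 and Stat3 from -0.35 to 0.27 (-0.14 without mESC replicate 1). From ectoderm-like to XEN-like cells Il6st ranged from -0.10 to 1.17 and Jak1 from -0.43 to 0.32 (0.14 without XEN-like replicate 2). Of 373 alternative values of single members, 334 kept direction and side, 10 lost the threshold, 1 gained it, 20 moved beyond their spread and 8 changed sign. Low counts leave wide intervals for Junb outside the cultures (1 to 14 molecules a library) and for Pim1 in sorted XEN-like cells (7 and 2).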

Other observations

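Tff1 and Gkn1 were at nearly equal levels in each of the 24 bulk libraries other than the XEN-like culture. In the first mESC library Tff1 was at 29.7 CPM and Gkn1 at 33.7 CPM, and in T3 of 72 h, the highest, they were at 60.6 and 62.9 CPM. As a share of their levels in the XEN-like culture, T3 held 0.107% of Tff1 and 0.116% of Gkn1. The most abundant member in a library, Lifr in XEN-like replicate 1, was read from 714 molecules.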
